A study of Mus musculus with 4 samples.

Results

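The complement system is a cascade of plasma proteases and their substrates that marks microbes and dying cells for removal. It is entered through the classical, lectin or alternative pathway, all of which cleave C3, and it ends in a membrane pore built from the terminal components. Fragments released on the way act through receptors on leukocytes, and regulators on cell surfaces limit damage to host cells. Liver makes most of the plasma proteins, while macrophages make C1q and express several receptors, so in bone marrow the local transcripts of macrophages, granulocytes, B cells and stroma are what a tissue RNA measurement sees.

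The genes described here are complement components, receptors and regulators, listed by function as 39 genes. Of these, 37 had a probe set annotated to exactly 1 gene symbol, out of 19938 such genes on the array. The rule uses function and not measured values, although the list was drawn up with earlier results of these data known. C3 and Cfd are not analysed here. Each of the 37 measured genes had 1 such probe set. Mice of the C57BL/6N strain gave the bone marrow cells, and each of the 4 samples had its own array (Affymetrix Mouse Gene 1.0 ST). The control group (PBS, replicates 1 and 3) received an intraperitoneal injection of phosphate-buffered saline, and the other group (LPS, replicates 1 and 2) received 50 µg of lipopolysaccharide, an equal mixture from E. coli K12 and S. minnesota. Marrow was taken 8 h later in both groups. The labels give no age or sex, and do not say whether a replicate is 1 mouse or a pool. The p-values set a difference against the spread between these samples, estimated in part from all genes together. That spread may be partly technical.

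Levels are given on the log2 scale for each gene's probe set, as normalized by the authors with RMA, a method that corrects background, brings all arrays to 1 distribution and summarizes the probes of a set. A difference of 1 is a doubling. A gene was said to rise or fall when its limma adjusted p was under 0.05 over all 19938 genes. The median over genes lay between 8.01 and 8.03 on the 4 arrays. RMA makes the arrays alike in this, so it cannot show whether an array stood apart. Neutrophil and erythroid markers were high. The 12 neutrophil markers had mean levels from 10.86 to 13.51, and the 5 erythroid markers measured ran from 10.01 to 13.02. Markers of other marrow cells had lower median levels, down to 7.77 for the 6 natural killer markers. Of 9 hepatocyte markers, 7 lay under the lower quartile of all genes (6.69), Alb among them.

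After LPS 4 of the 37 measured complement genes rose and 2 fell, against a background of 2.39% of all genes higher and 1.27% lower. The 6 called genes make up 16.2% of the 37, where 3.66% of all genes were called. The 4 that rose were Cfb, C3ar1, C2 and C4b, and the 2 that fell were Fcna and Cr2. Those shares come to 10.8% and 5.41% of the complement genes. The median difference over the 37 genes was -0.03 and that over all genes -0.01. In 26 of the 37 genes the difference was smaller than 0.25 in either direction. The 31 genes that did not pass had differences from -0.84 to 0.25, and 8 of them had an unadjusted limma p under 0.05. At that unadjusted threshold 5 of the 37 genes were higher and 9 lower, as were 1417 and 1732 of all 19938 genes. Whether called or not, 3 of the 37 genes (Cfb, C3ar1 and C2) were higher by at least 1 log2 unit, as were 0.858% of all genes. A negative difference of that size was seen in 0 of the 37 genes and in 0.135% of all genes. Groups did not overlap in 23 of the 37 genes, while 44.9% of all genes had no overlap. The LPS arrays were the higher ones in 7 of these (20.4% of all genes) and the lower ones in 16 (24.5% of all genes).

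**Figure D1:**
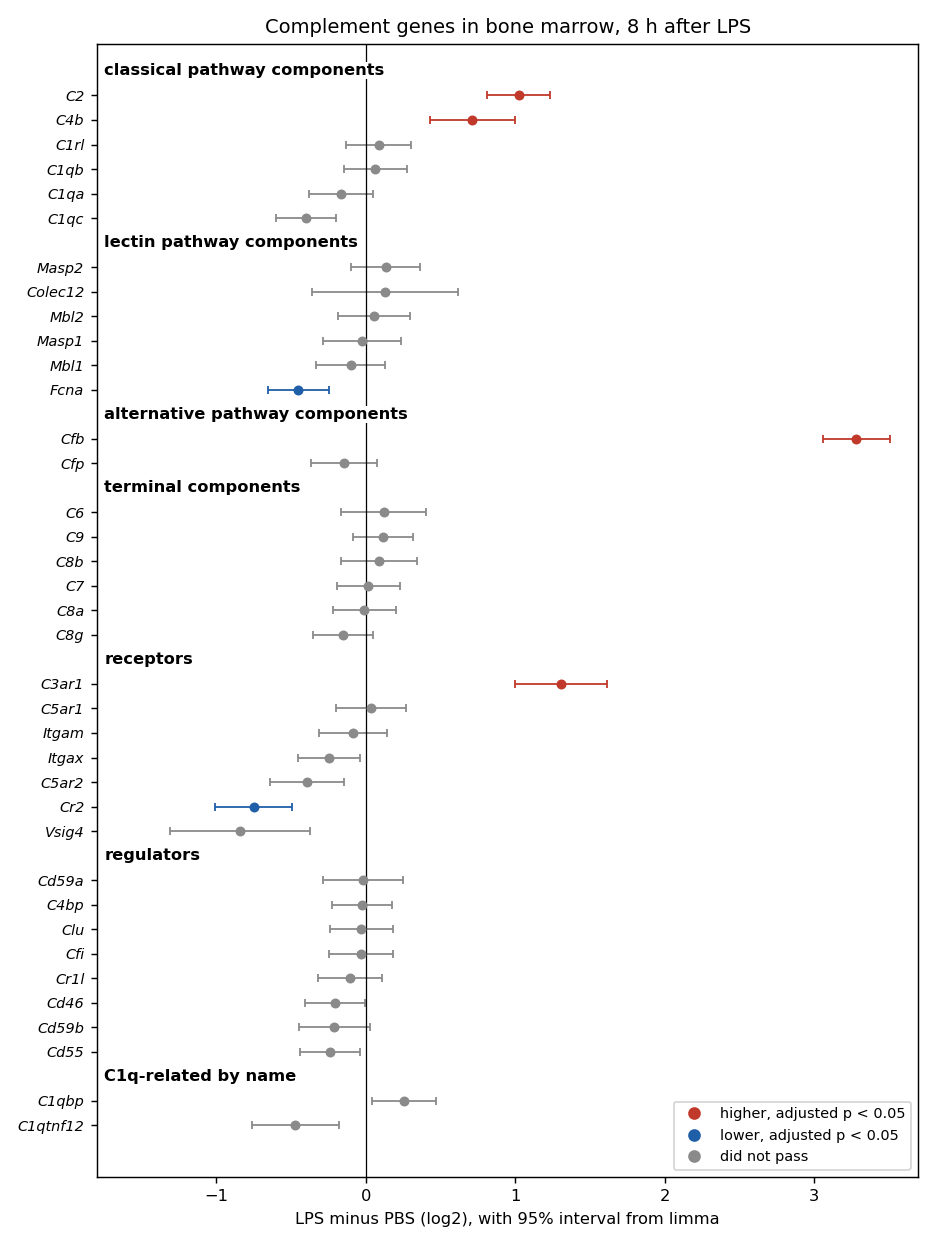
Difference between the LPS and PBS group means (x axis, log2) for each of the 37 measured complement genes, ordered within functional groups; points are estimates and bars 95% intervals from limma with 2 arrays per group. Cfb stands alone at 3.28, C3ar1, C2 and C4b lie between 0.71 and 1.31, and every regulator lies at or just below 0.

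Among classical pathway components 2 of 6 rose and 0 fell, with a median difference of 0.07. In the lectin pathway 0 of 6 rose and 1 fell, with a median of 0.01. Of the alternative pathway components 1 of the 2 measured rose. Terminal components had 0 of 6 called in either direction and a median of 0.05. Receptors held 1 rise and 1 fall among 7, with a median of -0.24. Regulators had 0 of 8 called and a median of -0.07, with negative differences in all 8. These groups are small, and no test compared one with another.

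The classical pathway starts when C1q, a hexamer of trimers built from the A, B and C chains, binds antibody or a dying cell. It then runs through C4 and C2, which together form its C3-cleaving enzyme. C2, which supplies the protease of that enzyme, was at 7.24 in PBS replicate 1, 7.36 in PBS replicate 3, 8.34 in LPS replicate 1 and 8.30 in LPS replicate 2 (log2 levels, the order of arrays kept below). The groups were well apart. The means were 7.30 ± 0.09 and 8.32 ± 0.03 (SD, n = 2 each), a 2.03-fold rise (log2 difference 1.02, SE 0.0918, 95% interval 0.81 to 1.24, limma adjusted p = 0.000804).

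C4b encodes the complement C4 whose fragment attaches covalently to targets. Its levels were 9.06 and 8.77 in the PBS arrays and 9.54 and 9.71 in the LPS arrays, with no overlap. The rise was 1.64-fold (log2 difference 0.71, SE 0.122, interval 0.43 to 1.00, limma adjusted p = 0.0207). This call was lost without LPS replicate 2 (0.63, limma adjusted p = 0.0536) and when all 35556 probe sets were fitted and adjusted together (limma adjusted p = 0.117). C4b has a close copy beside it, C4a, the sex-limited protein gene, and how the probes divide between them was not given. C4a itself had 7.53 and 7.31 in PBS and 7.53 and 8.00 in LPS, and its difference of 0.35 did not pass (limma adjusted p = 0.345).

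The genes for the C1q chains lie side by side on chromosome 4, and none of the 3 passed the test. C1qb had 11.19 and 11.23 in PBS and 11.33 and 11.22 in LPS, with overlapping groups and a difference of 0.06 (95% interval -0.15 to 0.27). C1qa had 10.23 and 10.12 in PBS and 10.05 and 9.96 in LPS, a difference of -0.17 (-0.38 to 0.05). C1qc had 10.84 and 10.87 in PBS and 10.46 and 10.45 in LPS. Its groups were tight and apart, with a difference of -0.40 (-0.60 to -0.20) that just missed the threshold (limma adjusted p = 0.051) and lay between 0.0409 and 0.247 over the alternatives run. The C1qb value minus the C1qc value of the same array was 0.34 and 0.37 in PBS and 0.87 and 0.77 in LPS, a shift of 0.46. With 2 arrays a group the smallest p of an exact permutation test is 0.333, which this shift reached. It is 1 of 10 pairs of genes chosen after the values were seen, and 9 of the 10 had no overlap between groups.

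The C1q genes are expressed chiefly by macrophages, and markers of resident macrophages moved in both directions in the same arrays. Of 14 such markers 3 rose and 4 fell. Cd163, the haemoglobin scavenger receptor, and Mrc1, the mannose receptor, had differences of -2.41 and -1.72, while Spic, a transcription factor of iron-recycling macrophages, rose by 1.49 and Adgre1, which encodes F4/80, by 0.56. The others that passed were Marco (1.58), Slc40a1 (-1.89) and Mertk (-0.54). The summed level of the 14 markers, on the log2 scale, was 14.14 and 14.15 in PBS and 14.01 and 13.95 in LPS, and none of the 14 lay under the lower quartile of genes. In bulk RNA, fewer cells of a type and less RNA per cell cannot be told apart, and the part of macrophage number in the C1q values was not tested.

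The remaining classical gene, C1rl, encodes a protease related to C1r and had a difference of 0.09 (interval -0.13 to 0.30). The proteases C1r and C1s themselves, which C1q carries and which cut C4 and C2, were not among the 39 genes but were measured beside them. C1s1 was 7.48 and 7.53 in PBS and 8.46 and 8.18 in LPS, a rise of 0.82 (SE 0.112, limma adjusted p = 0.00719). C1ra (0.41, limma adjusted p = 0.178) and C1s2 (0.33, limma adjusted p = 0.118) had no overlap, with LPS higher, and did not pass. C1s1 and C1s2 are close copies, as are C1ra and C1rb, so the division between them is uncertain.

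The lectin pathway is opened by soluble pattern receptors, the mannose-binding lectins, ficolins and collectins, which carry the MASP proteases. Fcna encodes ficolin A, a plasma lectin made in liver and by macrophages. Its levels were 10.29 and 10.23 in PBS and 9.82 and 9.79 in LPS, with both groups tight and apart. The fall was 0.45 log2 (-0.45, SE 0.0873, 95% interval -0.65 to -0.25, limma adjusted p = 0.0344). The direction was kept whichever array was left out, while the call was lost without PBS replicate 1 (limma adjusted p = 0.072), without LPS replicate 1 (0.111), without LPS replicate 2 (0.153) and with all probe sets fitted and adjusted together (0.122). The gene beside it, Tmem141, also fell, by a difference of -0.46 (limma adjusted p = 0.0424), and RefSeq annotates an antisense gene, Fcnaos, across Fcna, which had a difference of -0.03. The neutrophil ficolin gene Fcnb was 10.55 and 10.47 in PBS and 10.20 and 9.86 in LPS, a difference of -0.48 that did not pass (limma adjusted p = 0.0926). The macrophage markers given above apply beside Fcna too. For Fcnb, 2 of 12 neutrophil markers fell and 0 rose, and their summed log2 level was 16.51 and 16.40 in PBS and 16.25 and 16.11 in LPS.

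No other lectin pathway gene passed. The proteases Masp1 (-0.03) and Masp2 (0.13) and the lectin gene Mbl1 (-0.10) lay under the lower quartile of genes, and Mbl2 had 0.05. Colec12, a membrane collectin that is also a scavenger receptor, was the least precise, with 9.02 and 9.69 in PBS and 9.64 and 9.32 in LPS. Its difference was 0.13 with an interval from -0.36 to 0.62, and it turned negative when replicate 1 of PBS (-0.21) or of LPS (-0.03) was left out. The PBS arrays also differed in stromal collagen, with Col1a1 at 11.99 in replicate 1 and 13.33 in replicate 3, and the part of stroma in the Colec12 values was not tested.

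The alternative pathway runs continuously at a low rate and amplifies the others. Its protease, factor B, is encoded by Cfb and its stabilizer, properdin, by Cfp. Cfb had the largest change of the measured complement genes. PBS arrays gave log2 levels of 8.06 and 8.02, and LPS arrays gave 11.24 and 11.41. The groups lay more than 3 log2 units apart, while replicates of a group differed by at most 0.16. The means were 8.04 ± 0.03 and 11.33 ± 0.12 (SD, n = 2 each), a 9.74-fold rise (SE 0.0961 log2, 95% interval 3.06 to 3.51 log2, limma adjusted p = 6.79e-06). It ranked 9 among 19938 genes by size of rise. Leaving out 1 array at a time moved the difference only between 3.20 and 3.37.

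Cfp, made by neutrophils and their precursors, did not pass. It was 11.37 and 11.52 in PBS and 11.32 and 11.27 in LPS, a difference of -0.15 (95% interval -0.37 to 0.07, limma adjusted p = 0.53).

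**Figure D2:**
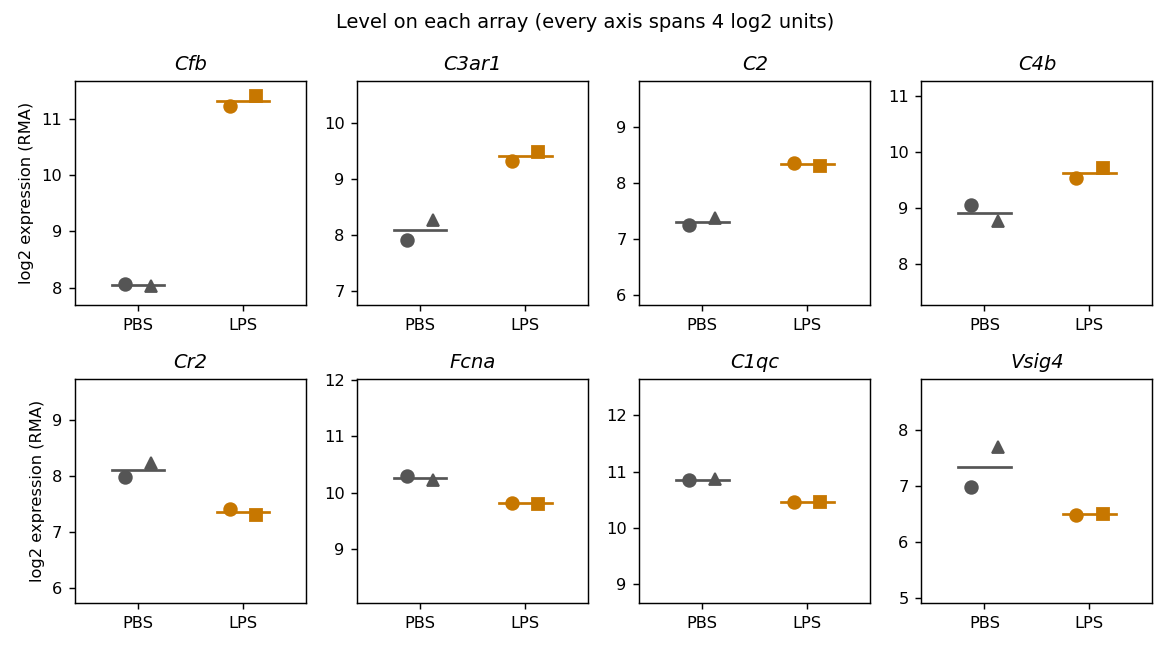
Log2 level (y axis, RMA values) on each array for 8 complement genes; circles are replicate 1 of each group, triangles PBS replicate 3 and squares LPS replicate 2, and lines mark group means. The 6 genes called and the 2 closest to the threshold, C1qc and Vsig4, have groups that do not overlap, and the PBS arrays of Vsig4 lie 0.71 apart.

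Cfb, C2 and C4b belong to the same part of the genome, the class III region of the major histocompatibility complex on chromosome 17, where Cfb and C2 are next to each other. Of the 9 genes measured from C4b to C2 in gene order, these 3 were the ones that passed. The genes between C4b and Cfb had differences of -0.07 (Cyp21a1), 0.35 (C4a), 0.17 (Stk19), 0.05 (Dxo), 0.01 (Skiv2l) and 0.01 (Nelfe). Beyond C2 lay Zbtb12 with 0.06 and Ehmt2 with 0.00, and on the side of C4b lay Tnxb with 0.08 and Atf6b with 0.20. None of these 10 neighbours passed. Cfb and C2, relatives that occupy equivalent places in the alternative and classical pathways, rose unequally. The Cfb value minus the C2 value of the same array was 0.82 and 0.66 in PBS and 2.90 and 3.11 in LPS, a change of 2.26 log2, with no overlap between groups (exact permutation p = 0.333, the smallest possible, and 0.37 adjusted over 10 such pairs chosen after the values were seen). Of those 10 pairs, 9 had no overlap.

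**Figure D3:**
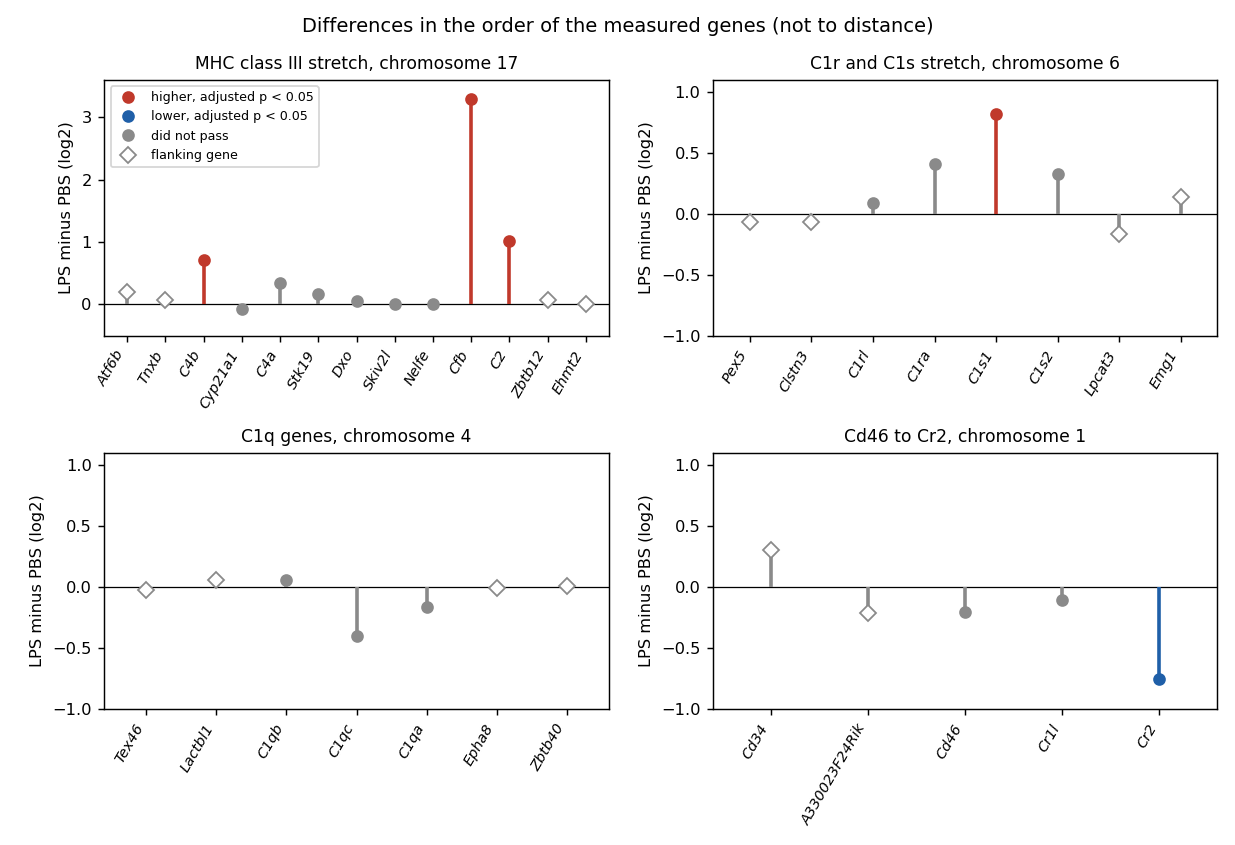
Difference between LPS and PBS (y axis, log2) for measured genes in chromosomal order along 4 stretches that hold complement genes (x axis, order only; the chromosome 17 panel has a wider y axis); open diamonds are flanking genes outside the stretch. In the chromosome 17 panel Cfb, C2 and C4b stand above the other genes, which run from -0.07 (Cyp21a1) to 0.35 (C4a). In the chromosome 1 panel Cr2 is lower at -0.75 beside Cd46 and Cr1l at -0.21 and -0.10.

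The terminal components C6, C7, C8 and C9 assemble the membrane attack complex and come chiefly from liver. None of the 6 measured genes passed, and their differences ran from -0.15 (C8g) to 0.12 (C6). The 95% intervals of the 6 genes lay within -0.36 and 0.41. C9, which forms the ring of the pore, had 5.05 and 5.03 in PBS and 5.14 and 5.17 in LPS, and C7 had 5.92 and 5.91 against 5.88 and 5.99. Both lay under the lower quartile of genes, where a probe set may report little beyond background. The median level of the 6 terminal genes, 6.78, was just above that quartile (6.69), so this caution reaches beyond C7 and C9. Of 9 hepatocyte markers in the same arrays 0 were called, and their differences ran from -0.12 to 0.04.

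**Figure D4:**
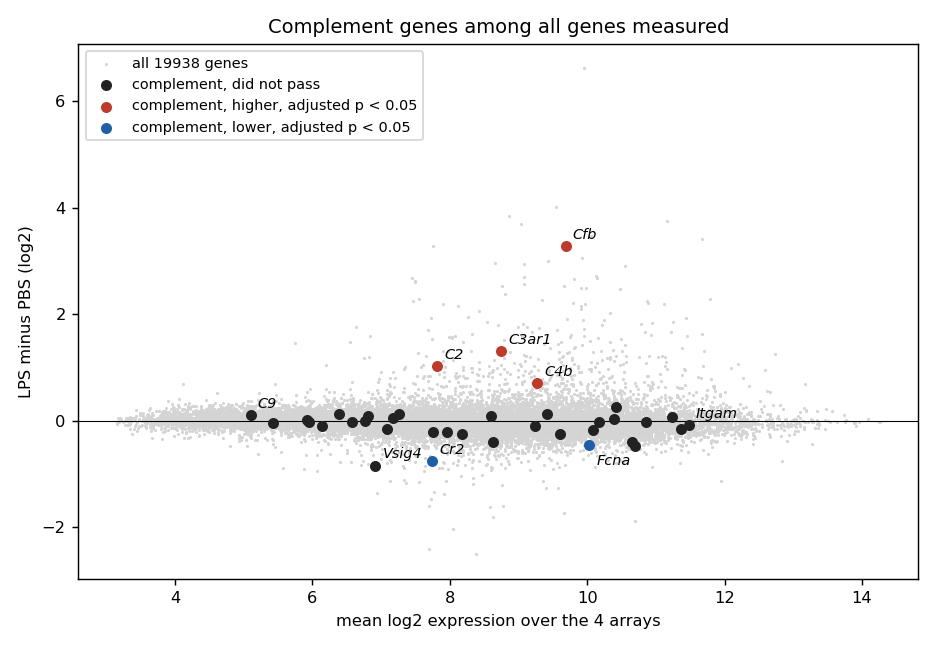
Mean log2 level over the 4 arrays (x axis) and difference between LPS and PBS (y axis, log2) for all 19938 genes (grey) and the 37 complement genes (coloured by call). Complement genes run from C9 at the left to Itgam at the right, and Cfb, at 3.28, ranks 9 among all genes by size of rise.

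Receptors read the fragments that activation leaves behind. C3a and C5a, the anaphylatoxins, act through C3ar1, C5ar1 and C5ar2, while C3 fragments fixed to targets are bound by Cr2, the integrins containing Itgam or Itgax, and Vsig4. C3ar1, the C3a receptor of myeloid cells, rose. Its log2 level was 7.91 and 8.27 in PBS and 9.32 and 9.48 in LPS, and both LPS arrays exceeded both PBS arrays by more than 1 log2 unit. The means were 8.09 ± 0.25 and 9.40 ± 0.11 (SD, n = 2 each), a 2.48-fold rise (log2 difference 1.31, SE 0.132, 95% interval 1.00 to 1.61, limma adjusted p = 0.00149). Monocyte markers went in both directions. Of 9 measured, 2 rose (Ms4a4c by 1.08 and Ms4a6c by 0.49) and 0 fell. The other 7 had negative differences that did not pass, and the median difference over the 9 was -0.13. Their summed log2 level was 13.50 and 13.60 in PBS and 13.81 and 13.66 in LPS. Their part in the C3ar1 result was not tested. Among the nearest measured genes in order on chromosome 6, Clec4a1 also rose, by 0.83 (limma adjusted p = 0.00173). Slc2a3 (0.07), Foxj2 (-0.26) and Necap1 (0.03) did not pass.

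Neither of the C5a receptors, neighbours on chromosome 7, passed. C5ar1, the signalling receptor of neutrophils and monocytes, was 10.47 and 10.27 in PBS and 10.44 and 10.37 in LPS, a difference of 0.03 (interval -0.20 to 0.27). C5ar2, a second C5a receptor that does not couple to G proteins, was 8.95 and 8.71 in PBS and 8.47 and 8.41 in LPS, a difference of -0.39 (interval -0.64 to -0.14) with no overlap and no call (limma adjusted p = 0.111). Without PBS replicate 3 it passed at -0.51 (limma adjusted p = 0.0278). The C3ar1 value minus the C5ar1 value of the same array was 1.28 log2 higher in LPS, with no overlap (exact permutation p = 0.333, the smallest possible). This is 1 of the 10 pairs chosen after the values were seen, of which 9 had no overlap.

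Cr2 encodes complement receptor 2, the B-cell coreceptor for C3d, and in mice also complement receptor 1 by splicing. It was 7.99 and 8.25 in PBS and 7.42 and 7.31 in LPS, and the LPS arrays were the lower ones. The fall was 1.68-fold (log2 difference -0.75, SE 0.111, 95% interval -1.01 to -0.49, limma adjusted p = 0.0105), and the call held whichever array was left out (limma adjusted p at most 0.0259) but not with all probe sets fitted and adjusted together (0.0741). Of 9 mature B-cell markers measured, 0 rose and 1 fell, Fcer2a (-1.61), the low-affinity IgE receptor. All 9 had negative differences, with a median of -0.15, from which Ms4a1 (CD20) at -0.01 lay farthest toward 0. Their summed log2 level was 14.52 and 14.48 in PBS, 14.12 in LPS replicate 1 and 14.52 in LPS replicate 2. The 2 LPS arrays thus differed in this sum, each value is from a single array, and the part of B-cell number in the Cr2 result was not tested.

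Vsig4, the C3b and iC3b receptor of tissue macrophages, had the largest negative difference of the receptors and did not pass. It was 6.98 and 7.69 in PBS and 6.48 and 6.51 in LPS, with no overlap. The difference was -0.84 (SE 0.202, 95% interval -1.31 to -0.37, limma adjusted p = 0.0755), and the PBS arrays alone differed by 0.71. It passed without PBS replicate 1 (-1.20, limma adjusted p = 8.15e-05) and without PBS replicate 3 (-0.48, 0.0336), so its size depends on which PBS array is used. Its LPS mean of 6.49 lay under the lower quartile of genes, and the size of the difference is uncertain there.

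The integrin genes differed little. Itgam, the alpha chain of complement receptor 3 on neutrophils and monocytes, was 11.61 and 11.43 in PBS and 11.45 and 11.42 in LPS, a difference of -0.08 (interval -0.31 to 0.14). Itgax, the alpha chain of complement receptor 4 and a dendritic-cell marker, was 8.35 and 8.25 in PBS and 8.06 and 8.05 in LPS, a difference of -0.24 that did not pass (limma adjusted p = 0.233). Among 8 dendritic-cell markers 0 rose and 1 fell, Cd209a (-2.02), and their summed log2 level was 11.82 and 11.85 in PBS and 11.45 and 11.35 in LPS. Their part in the Itgax value was not tested.

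The regulators keep activation off host cells. Cd55 and Cr1l (Crry) dismantle or help to cleave the C3-cleaving enzymes, Cd46 is a cofactor for factor I, Cd59a and Cd59b block the pore, and the plasma proteins factor I (Cfi), C4b-binding protein (C4bp) and clusterin (Clu) act in the fluid phase. None of the 8 passed, and the differences ran from -0.24 to -0.02. All 8 were negative, and 47.4% of all genes had a positive difference. In 5 of the 8 the groups did not overlap, with LPS lower, as in 24.5% of all genes (44.9% for no overlap in either direction).

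Cd55 had the largest difference of the regulators, with 9.74 and 9.71 in PBS and 9.49 and 9.47 in LPS (-0.24, interval -0.44 to -0.04, limma adjusted p = 0.224). Cd46 had 8.07 and 8.05 against 7.84 and 7.87 (-0.21, limma adjusted p = 0.299). In both genes the replicates of a group were within 0.03 of each other. Cr1l, the main surface regulator of mouse blood cells, had 9.30 and 9.29 against 9.25 and 9.13, a difference of -0.10 with an interval from -0.32 to 0.11. Cd59a (-0.02) and Cd59b (-0.21) are close copies, as are Cd55 and Cd55b (-0.23 for the latter), and signal may be shared between them. Cfi and C4bp lay under the lower quartile of genes with differences of -0.03 each. Clu, abundant in platelets, was 10.24 and 10.14 in PBS and 10.17 and 10.15 in LPS (-0.03), and the 6 megakaryocyte and platelet markers measured had a median difference of 0.01 with 0 called.

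Several of these regulators and Cr2 share the gene cluster of complement regulators on chromosome 1, in which Cd46, Cr1l and Cr2 are adjacent. Their differences were -0.21, -0.10 and -0.75 in that order, with the last as the only call.

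A pair of the listed genes is related to C1q by name rather than by a place in the cascade. C1qbp, a largely mitochondrial protein that can bind the globular heads of C1q, was 10.29 and 10.31 in PBS and 10.62 and 10.49 in LPS, a difference of 0.25 (interval 0.04 to 0.47, limma adjusted p = 0.228). C1qtnf12, which encodes the secreted factor adipolin, was 11.10 and 10.78 in PBS and 10.39 and 10.54 in LPS, a difference of -0.47 (limma adjusted p = 0.104), and it passed without PBS replicate 3 (-0.63, limma adjusted p = 0.011).

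Of 25 further complement genes measured, 2 rose and 1 fell. These are shares of 8% and 4%, where 2.39% of all genes were higher and 1.27% lower. Ptx3, a long pentraxin that binds C1q, was 7.73 and 7.50 in PBS and 10.10 and 9.87 in LPS, a rise of 2.38 log2 (SE 0.12, limma adjusted p = 4.78e-05). The other rise was that of C1s1, given above. Thbd, thrombomodulin, which promotes inactivation of C3b and of the anaphylatoxins beside its anticoagulant role, fell from 9.36 and 9.39 to 8.14 and 8.18 (-1.21, SE 0.0865, limma adjusted p = 0.000227). Serping1, the C1 inhibitor, was 11.55 and 11.82 in PBS and 12.13 and 12.24 in LPS, a difference of 0.50 with no overlap that did not pass (limma adjusted p = 0.0617). Hc, which encodes C5, had 0.12 and the integrin beta chain gene Itgb2 had -0.14.

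Promoter windows were available for 3 of the 6 called genes, and they are shown because one of these genes rose while the others fell. Each runs from 250 bases before to 50 bases after an annotated start, 5′ to 3′ on the gene's strand, from RefSeq (GRCm38.p6). Capitals mark matches on either strand to a loose NF-kappaB pattern, GGG and CC with any 5 bases between them. Matches that overlap are merged.

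C3ar1, chr6:122856108-122856407, minus strand: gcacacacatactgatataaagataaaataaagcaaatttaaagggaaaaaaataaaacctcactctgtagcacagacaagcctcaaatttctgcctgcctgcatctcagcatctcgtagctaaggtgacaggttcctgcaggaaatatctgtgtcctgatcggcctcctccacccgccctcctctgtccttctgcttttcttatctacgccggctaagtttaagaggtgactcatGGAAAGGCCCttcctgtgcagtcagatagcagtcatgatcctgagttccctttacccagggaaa

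Cr2, chr1:195176670-195176969, minus strand: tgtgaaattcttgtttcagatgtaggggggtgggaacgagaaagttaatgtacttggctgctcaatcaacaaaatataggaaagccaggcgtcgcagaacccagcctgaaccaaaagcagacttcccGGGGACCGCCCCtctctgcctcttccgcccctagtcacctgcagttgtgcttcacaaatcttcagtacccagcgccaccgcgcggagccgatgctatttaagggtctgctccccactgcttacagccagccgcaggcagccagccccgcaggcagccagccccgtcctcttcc

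Fcna, chr2:25627925-25628224, minus strand: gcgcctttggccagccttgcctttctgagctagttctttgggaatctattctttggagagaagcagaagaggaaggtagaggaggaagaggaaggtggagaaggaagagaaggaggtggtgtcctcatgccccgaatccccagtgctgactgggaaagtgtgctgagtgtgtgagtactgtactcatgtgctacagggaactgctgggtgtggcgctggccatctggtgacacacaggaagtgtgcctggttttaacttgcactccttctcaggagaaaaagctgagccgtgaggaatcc

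The C3ar1 window holds 1 match, beginning 14 bases before the start, the Cr2 window 3 overlapping matches that begin 123 to 121 bases before it, and the Fcna window 0. The pattern occurs in 50.8% of all 32851 promoter windows, and in 13 of the 28 listed genes that have one. Neither the interferon-stimulated response element, searched as GAAA, any 2 bases and GAAA (3.44% of all windows, 2 of the 28 genes) nor the gamma-activated site TTCNNNGAA (8.30% of all windows, 3 of the 28 genes) has a match in these 3 windows. The genes with a response element match are Cd46 and Cd59a, which did not pass, and those with a gamma-activated site match are Masp2, C7 and C8a, which did not pass either. These matches describe letters only.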

How the data were processed

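The authors deposited log2 expression values per probe set made with RMA, per the submitters' processing notes, and its version is not given in the sources used here. That the scale is log2 follows from the range, 2.76 to 14.52 over 35556 probe sets. Genes were named through GEO's platform annotation: 21789 probe sets had 1 symbol, 1621 had several and 12146 had none named here. For a gene with several probe sets the one with the highest mean stood for it, which left 19938 genes with no filter on low values. Every measured gene of the list is named.

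The groups were compared in a limma fit of all 4 arrays (lmFit, then eBayes, two-sided, no covariate, version 3.58.1 under R 4.3.3), with Benjamini-Hochberg adjustment over 19938 genes and 2 residual plus 5.59 prior degrees of freedom. Intervals are 95%. The fit was tested on simulated data that followed limma's own variance model, with added changes of 1 and 2 log2. Smaller changes and other kinds of spread were not simulated, so that test does not speak for them. Promoter windows and gene order came from RefSeq tables of GRCm38.p6. The small number of arrays limits the precision. The members of the list, their functional groups and the marker lists were chosen with earlier results of these data known.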

Additional observations from a re-analysis of the deposited data

Results flagged for a closer look

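A probe set annotated to both C1rb and C1ra, the near-identical genes of the C1r protease, stood for neither gene above because it names more than 1. Its signal lies outside the genes compared and was above the controls: PBS arrays gave 9.05 and 9.04, LPS arrays gave 9.92 and 9.85, and the difference was 0.841 log2. With all 35556 probe sets in 1 limma fit its adjusted p was 0.0196.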

How the results depend on the processing

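With 2 arrays per group the calls rest on limma's shared variance. With no variance moderation 0 genes passed after adjustment, while 4 complement genes were higher and 7 lower at an unadjusted p under 0.05, as were 1075 and 1110 of all genes and 3 and 2 of the further complement genes. No paired analysis was possible because the groups share only replicate number 1. Leaving out low genes and an intensity trend kept all 6 complement calls, and no alternative changed a direction among them. Both of these settings also called C1qc lower (limma adjusted p = 0.0422 and 0.0409), which made 3 lower. Averaging probe sets and centring kept the 6 calls too, and averaging added C1qc (limma adjusted p = 0.0492), but neither could move these genes much. Each measured gene of the list had 1 probe set to average, and RMA had already brought the arrays to 1 distribution. Of complement genes 4 were higher (3 to 4 leaving out 1 array at a time) and 2 lower. The lower ones numbered 0 with all probe sets in the limma fit (8 at an unadjusted p under 0.05), 0 at an adjusted p under 0.01, 5 without PBS replicate 3, and 1 without either LPS array. Over all genes 476 were higher and 254 lower. At an adjusted p under 0.01 these were 286 and 58, and with all probe sets 63 were lower. Leaving out 1 array gave 385 to 696 higher, and from 127 lower (without LPS replicate 2) to 423 (without PBS replicate 3). Of the further complement genes 2 rose and 1 fell. With all probe sets in the fit 1 rose, and leaving out 1 array gave 2 to 4 higher, the 4 without PBS replicate 3, and 1 to 2 lower, the 2 without LPS replicate 1. Fitting all probe sets changes the variance estimate as well as the adjustment, and leaving out an array leaves fewer samples. The cause of these changes was not tested.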
